A study of Sus scrofa with 10 samples.

Results

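The creatine kinase and phosphate transfer genes were followed in the right ventricle of pigs with chronic thromboembolic pulmonary hypertension (CTEPH) and of Sham pigs. CTEPH obstructs the pulmonary arteries and thereby raises the pressure against which the right ventricle pumps. The genes were taken by symbol from a list of 9, and 8 of them had a row among the 12378 genes of the table that have a symbol (3260 more have none): CKMT2, CKM, CKB, SLC6A8, GATM, GAMT, AK1 and AMPD3. No identifier in the table carried the symbol AK4, so AK4 is not analysed here. Ventricular biopsies of 5 CTEPH pigs (libraries s1, s3, s4, s5 and s9) and 5 Sham pigs (s2, s6, s7, s8 and s10) gave 1 bulk RNA library each, per the labels. The sources used here do not say how CTEPH was induced, what the Sham operation was, or what the breed, sex, age and time after surgery were. The values are deposited log2 expression values brought to nearly 1 distribution in all libraries, and they are not corrected for gene length.

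Creatine kinases pass the phosphate of ATP to creatine and back, which buffers ATP where the heart uses it quickly. A mitochondrial form loads creatine beside the sites of ATP synthesis, and cytosolic forms return the phosphate to ADP at the myofilaments and ion pumps. The cell takes creatine up through a transporter, and creatine is made from arginine and glycine by GATM and GAMT, mostly in kidney and liver. Adenylate kinases share phosphate among AMP, ADP and ATP, and AMP deaminases remove AMP as IMP. A lower creatine kinase capacity and a larger share of the CKB form are long described in hypertrophied and failing hearts.

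The mitochondrial creatine kinase gene CKMT2 was the only gene of the 8 that passed the test, and it was higher in CTEPH. The muscle creatine kinase gene CKM and both genes of creatine synthesis, GATM and GAMT, had lower means in CTEPH, and the brain-type gene CKB had a higher mean, but none of these differences passed. Each gene was tested in 1 limma fit over the whole table, with p-values adjusted over the whole table (Benjamini-Hochberg) and a threshold of 0.05. In that fit 4.62% of all genes were called (2.83% of all genes as higher and 1.79% as lower in CTEPH), the background against which 1 called gene of 8 is to be read. At an unadjusted p under 0.05 there were 5 of the 8 genes (CKMT2, GATM, CKB, CKM and GAMT), against 20.3% of all genes. The median log2 fold change was -0.38 over the 8 genes and -0.03 over all genes, with 3 of the 8 above 0 and 5 below.

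**Figure D1:**
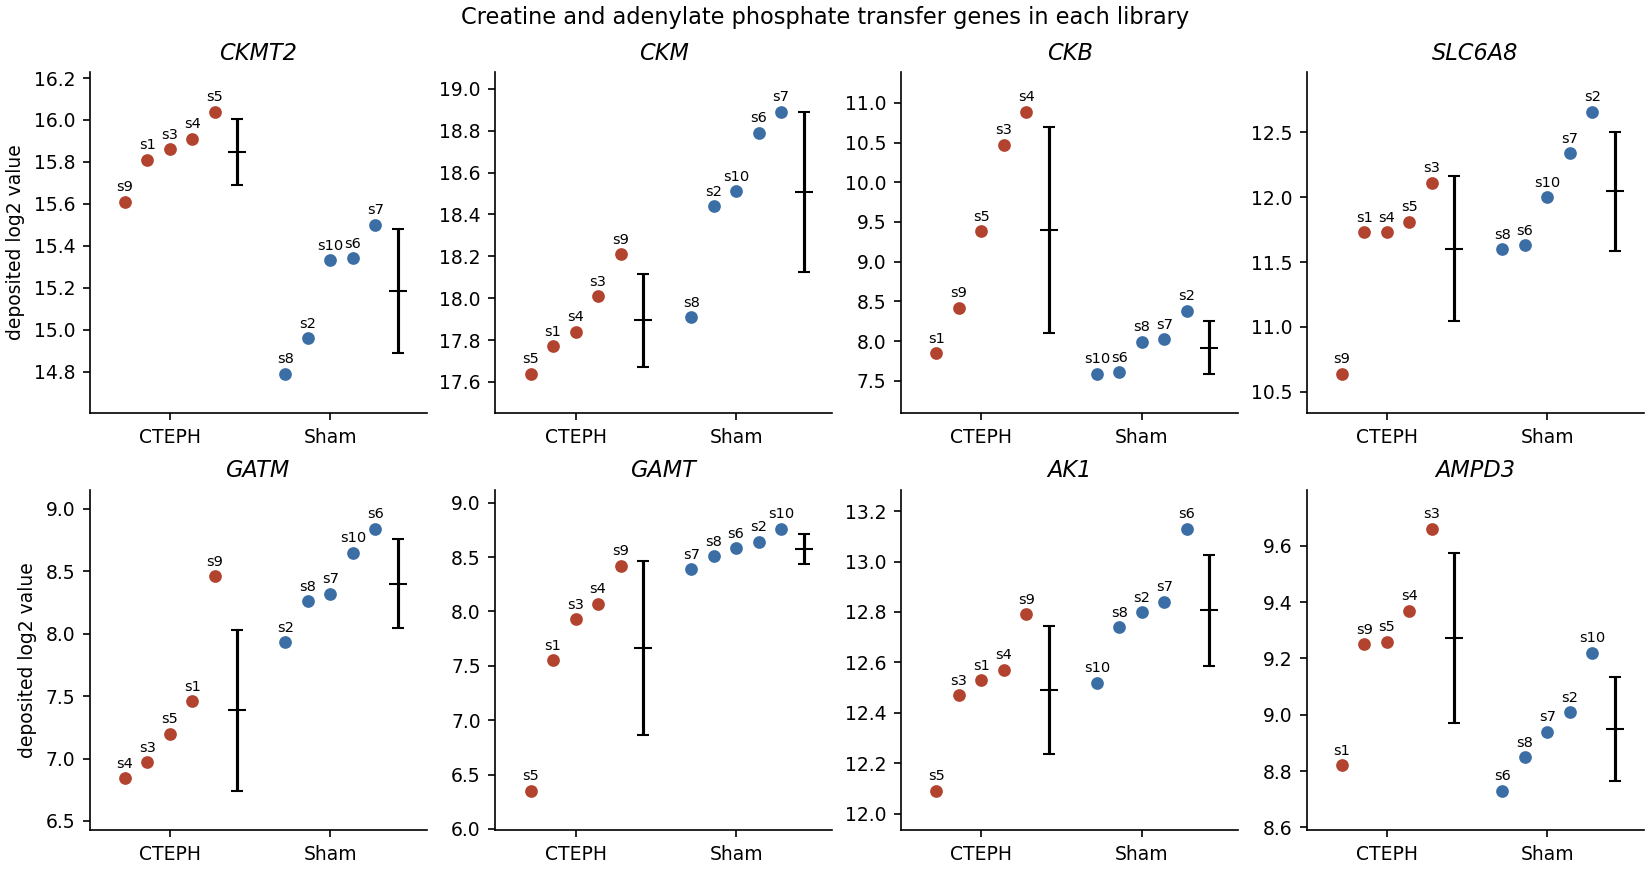
Deposited log2 value (y axis, a separate range in each panel) of the 8 genes in each library, with CTEPH libraries on the left and Sham libraries on the right, sorted by value within a group. Black bars are the mean ± SD (n = 5 each); in CKMT2 alone every CTEPH library lies above every Sham library.

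The libraries differed in depth within both groups, and heart muscle genes stood high in all of them. Relative depth, read from low values that give back whole counts, ranged from 0.724 to 1.57, and each library had between 4 and 33 genes at a count of 0. The cardiomyocyte list, of which 12 of 15 genes were measured, averaged log2 17.6 to 17.8 in CTEPH libraries, against 17.3 to 17.7 in Sham libraries. Of these 12 genes MYL2 and CSRP3 were called higher in CTEPH and 0 lower, with a median log2 fold change of -0.01. CSRP3 lost its call without CTEPH library s4 or s5 or Sham library s2, s6 or s10 (limma adjusted p of up to 0.0649), and MYL2 without s4 (0.0509). MYBPC3, named after its value was seen, was at -0.54 ± 0.23 (limma adjusted p = 0.214). The list of dividing-cell genes set the groups far apart, with 9 of 9 measured genes called higher in CTEPH and a mean centred level of 0.65 to 2.11 in CTEPH against -1.65 to -1.32 in Sham. Macrophage genes (2 of 10 called higher) stood at 0.01 to 0.72 in CTEPH, against -0.60 to 0.16 in Sham, and endothelial genes (2 of 9 called lower) at -0.54 to 0.0 in CTEPH, against -0.09 to 0.59 in Sham. The median log2 fold change of the macrophage list was 0.4. Its gene CD68, named after its value was seen, went the other way, at -0.5 ± 0.2 (limma adjusted p = 0.175). MSR1, a scavenger receptor (1.62 ± 0.23), kept its call in each refit without 1 library. LYZ, lysozyme (2.38 ± 0.55), lost it without s3, s4, s5, s2 or s7 (limma adjusted p of up to 0.0648). The angiopoietin receptor gene TEK (-0.78 ± 0.17) lost it without s3, s4, s6, s8 or s10 (up to 0.0576), and the VEGF receptor gene FLT1 (-0.94 ± 0.22) without s3, s4, s6, s7 or s8 (up to 0.077). Of the fibroblast (10 measured), lymphocyte (5) and adipocyte (3) lists, 0 genes were called by limma, with 4, 0 and 0 at an unadjusted p under 0.05. The part of these cell types in the differences below was not tested. In bulk tissue, fewer cells of a type and less RNA per cell cannot be told apart.

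CKMT2 encodes the sarcomeric creatine kinase of the mitochondrial intermembrane space (ENSSSCG00000014128; chromosome 2, 89796470 to 89830293 in Sscrofa11.1). Its log2 value was 15.81, 15.86, 15.91, 16.04 and 15.61 in CTEPH libraries s1, s3, s4, s5 and s9, against 14.96, 15.34, 15.50, 14.79 and 15.33 in Sham libraries s2, s6, s7, s8 and s10. The groups did not overlap, which held for 6.57% of all genes and for 3.7% in the upward direction. The mean was 15.84 ± 0.16 in CTEPH libraries, against 15.18 ± 0.30 in Sham libraries (SD, n = 5 each). CKMT2 rose by 0.66 ± 0.16 on the log2 scale (SE; 95% interval 0.32 to 1.01; limma, Benjamini-Hochberg adjusted p = 0.0336), which is 1.58-fold.

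The rise of CKMT2 was small and close to the threshold. It stayed between 0.56 and 0.74 on the log2 scale when each library was left out in turn, and the call held without CTEPH library s1 or s9 or Sham library s7. The call was lost without CTEPH library s3, s4 or s5 (limma adjusted p = 0.0666, 0.0798 and 0.08, Benjamini-Hochberg) and without Sham library s2, s6, s8 or s10 (limma adjusted p = 0.0816, 0.0571, 0.0751 and 0.0615). Scaling each library to its cardiomyocyte genes gave 0.54 (limma adjusted p = 0.0547), and it set the median of all genes at -0.15, against -0.03 on the deposited scale. This scaling moves every gene of a library by the same amount, so relative to that median CKMT2 was by construction at 0.69 on both scales. The cardiomyocyte list stood at a centred level of -0.04 to 0.20 in CTEPH and of -0.28 to 0.08 in Sham. It holds MYL2, CSRP3 and TPM1, at 0.99, 0.95 and 0.5, and MYBPC3, at -0.54, with a median of -0.01. TPM1 is named for its likeness to CKMT2, given below. MYL2 and CSRP3, called higher in CTEPH, thus entered the scaling.

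CKM encodes the muscle creatine kinase, the main cytosolic form of heart and skeletal muscle (ENSSSCG00000036132; chromosome 6, 51704021 to 51716935). CKM stood at log2 values of 17.77, 18.01, 17.84, 17.64 and 18.21 in CTEPH libraries s1, s3, s4, s5 and s9, against 18.44, 18.79, 18.89, 17.91 and 18.51 in Sham libraries s2, s6, s7, s8 and s10. Sham library s8 lay inside the CTEPH range, and the other Sham libraries lay above all CTEPH libraries. The difference of -0.62 ± 0.21 (SE; 95% interval -1.07 to -0.16) did not pass (limma adjusted p = 0.118, Benjamini-Hochberg). Without s8 it was -0.76, the largest of the refits, at a limma adjusted p of 0.054.

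CKB encodes the brain-type creatine kinase, the other cytosolic form, which is found in embryonic heart, smooth muscle and nerve (ENSSSCG00000021220). In the RefSeq table of Sscrofa11.1 the gene sits on a sequence that is not placed on a chromosome. CKB stood at log2 values of 7.85, 10.47, 10.89, 9.38 and 8.42 in CTEPH libraries s1, s3, s4, s5 and s9, against 8.38, 7.61, 8.02, 7.99 and 7.59 in Sham libraries s2, s6, s7, s8 and s10. CTEPH libraries s3, s4 and s5 stood well above all others, s9 was just above the highest Sham library and s1 fell among the Sham libraries.

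The spread of CKB was wider between the CTEPH pigs than between the Sham pigs. The mean was 9.40 ± 1.30 in CTEPH libraries, against 7.92 ± 0.33 in Sham libraries (SD, n = 5 each), an SD 3.95 times as large in CTEPH, a ratio that was not tested. Where the values could be read back as counts, s1, s5 and s9 had 110, 369 and 123 counts, and Sham libraries s2, s6, s7, s8 and s10 had 196, 142, 96, 101 and 80. Divided by relative depth, these were 112.8, 345.5 and 169.9 in CTEPH, against 166.5, 94.1, 128.3, 124.0 and 94.8 in Sham. The difference of 1.48 ± 0.49 (SE; 95% interval 0.43 to 2.53), or 2.79-fold, did not pass (limma adjusted p = 0.104, Benjamini-Hochberg). It passed when CTEPH library s1 was left out (1.87, limma adjusted p = 0.0225) and with library weights (1.95, limma adjusted p = 0.0138), which gave s1 and s9 weights of 0.476 and 0.508 and called 8.11% of all genes.

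Smooth muscle and skeletal muscle genes varied between the same CTEPH libraries. All 10 smooth muscle and pericyte genes of the list were measured and none was at a count of 0 in all libraries. Their mean centred level was 0.44, 0.53 and 0.30 in CTEPH libraries s3, s4 and s5 and -0.61 and -0.40 in s1 and s9, against -0.30 to 0.14 in the Sham libraries. CNN1, a calponin of smooth muscle, was the only called gene of the list (log2 fold change 1.98 ± 0.47, limma adjusted p = 0.0294, Benjamini-Hochberg), and it lost its call in 6 of the 10 refits without 1 library. Those were the refits without CTEPH library s3 or s5 or Sham library s2, s6, s8 or s10, with a limma adjusted p of up to 0.0723. The median of the list was -0.04, and PDGFRB and RGS5, pericyte genes named after their values were seen, were at -0.54 ± 0.19 and -0.61 ± 0.26 (limma adjusted p = 0.134 and 0.209). Of 8 skeletal muscle genes 4 were measured, at a level of 1.27, 1.52 and 0.40 in CTEPH libraries s3, s4 and s5 and 0.18 and -0.18 in s1 and s9, against -0.94 to -0.47 in Sham. TNNT1, the slow skeletal troponin T, was the called gene among them (3.05 ± 0.46, limma adjusted p = 0.00222, Benjamini-Hochberg). The others, named after their values were seen, were ACTA1, MYH1 and MYH4. ACTA1 was at 1.19 ± 0.38 (limma adjusted p = 0.0936). MYH1 and MYH4 had low CTEPH means of log2 4.59 and 4.16. They were at 0.48 ± 0.46 and 0.39 ± 0.58 (limma adjusted p = 0.614 and 0.757). Of the neuron and Schwann cell list only 4 of 8 genes were measured, at a level of -0.58 to 0.07 in CTEPH and -0.40 to 1.08 in Sham. SOX10, a Schwann cell factor, was called lower (-1.09 ± 0.26, limma adjusted p = 0.0297, Benjamini-Hochberg) and lost its call without s3, s5, s2, s6 or s7 (up to 0.0772). TUBB3 of the same list, named after its value was seen, went the other way. It was at 0.65 ± 0.18, with groups that did not overlap (limma adjusted p = 0.0552), and the median of the list was -0.95. A list that is not one of a cell type, the pumps, motors and channels given below, varied between the same CTEPH libraries. Its level was 0.27, 0.15 and 0.20 in s3, s4 and s5 and -0.26 and -0.24 in s1 and s9, against -0.19 to 0.13 in Sham. Whether the muscle and neuron lists stand for cell types here was not tested, nor was the part of any of these lists in the CKB values.

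The balance between the creatine kinase genes was taken as a log2 difference within each library. Such a difference between genes of unlike length says nothing of their molar ratio, but it can be compared between libraries. CKB minus CKM was -9.93, -7.54, -6.95, -8.26 and -9.79 in CTEPH libraries s1, s3, s4, s5 and s9, against -10.07, -11.19, -10.87, -9.93 and -10.92 in Sham libraries s2, s6, s7, s8 and s10. CTEPH library s1 and Sham library s8 met at the same rounded value, and the other CTEPH libraries lay above every Sham library.

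The mean of CKB minus CKM was -8.49 ± 1.33 in CTEPH libraries, against -10.59 ± 0.56 in Sham libraries (SD, n = 5 each). CKB was thus higher relative to CKM by 2.10 on the log2 scale, or 4.28-fold (two-sided exact permutation p = 0.0159, where 0.00794 is the smallest that 5 against 5 libraries allow). The genes were named with earlier results of these data known, so this p is not independent evidence. With each library left out in turn the difference stayed between 1.71 and 2.46, and the exact permutation p stayed under the threshold, at up to 0.0476.

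CKMT2 minus CKM, chosen after its values were seen and therefore not tested, separated the groups without overlap. It was -1.96, -2.15, -1.94, -1.60 and -2.60 in CTEPH libraries s1, s3, s4, s5 and s9, against -3.48, -3.45, -3.39, -3.13 and -3.18 in Sham libraries s2, s6, s7, s8 and s10. The mean was -2.05 ± 0.36 in CTEPH libraries, against -3.33 ± 0.16 in Sham libraries (SD, n = 5 each), a difference of 1.28 on the log2 scale. Sham library s8, the lowest Sham library in both CKMT2 and CKM, lay with the other Sham libraries in this measure. A within-library difference shows that the 2 genes changed unequally and not which of them changed.

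**Figure D2:**
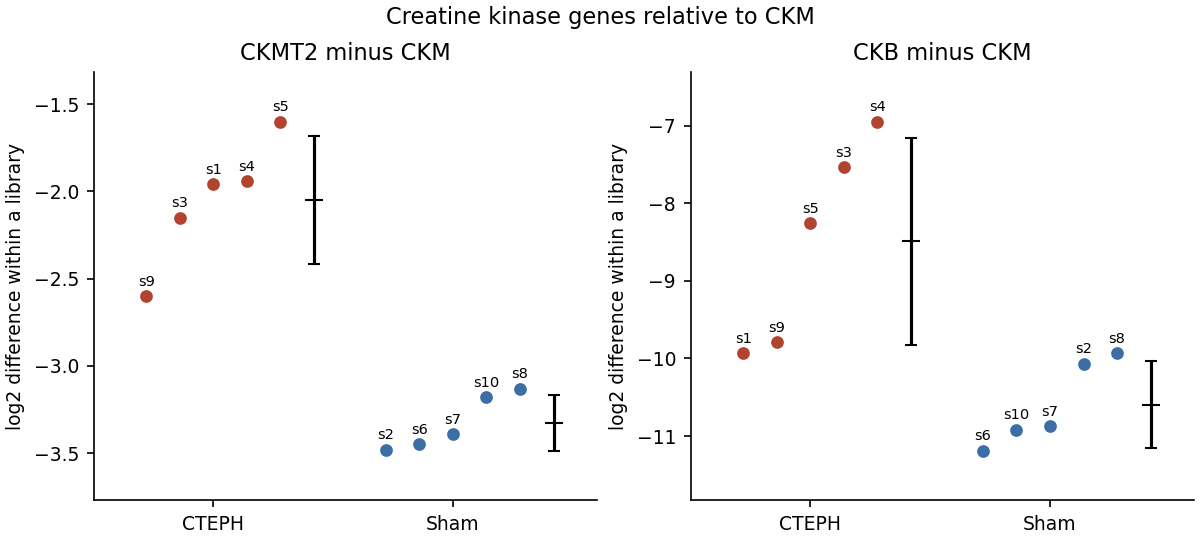
Log2 difference within each library (y axis, a separate range in each panel) of CKMT2 minus CKM and of CKB minus CKM, CTEPH libraries on the left and Sham libraries on the right. Black bars are the mean ± SD (n = 5 each); the CKMT2 panel shows no overlap, and in the CKB panel s1 and s9 lie near Sham libraries s2 and s8.

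GATM, glycine amidinotransferase, makes guanidinoacetate from arginine and glycine in the first and rate-limiting step of creatine synthesis (ENSSSCG00000004672; chromosome 1, 126361968 to 126378705). The GATM log2 value was 7.46, 6.97, 6.84, 7.20 and 8.46 in CTEPH libraries s1, s3, s4, s5 and s9, against 7.93, 8.84, 8.32, 8.26 and 8.65 in Sham libraries s2, s6, s7, s8 and s10. The values gave back 85, 58, 96, 81 and 127 counts in CTEPH, against 142, 329, 119, 122 and 170 in Sham, in the same order. Divided by relative depth, these were 87.1, 62.8, 61.0, 75.8 and 175.4 in CTEPH, against 120.6, 218.1, 159.1, 149.8 and 201.5 in Sham. CTEPH library s9 lay in the middle of the Sham range and the other CTEPH libraries lay below every Sham library.

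The GATM mean was 7.39 ± 0.64 in CTEPH libraries, against 8.40 ± 0.35 in Sham libraries (SD, n = 5 each). The difference of -1.01 ± 0.30 (SE; 95% interval -1.65 to -0.37), a mean 2.02-fold lower in CTEPH, missed the threshold (limma adjusted p = 0.0731, Benjamini-Hochberg). It passed without s9 (-1.28, limma adjusted p = 0.00727), with library weights (-1.22, limma adjusted p = 0.0142) and with voom on the recovered counts (-1.05, limma adjusted p = 0.0409), where 4.55% of genes with such counts passed. In the other 9 refits without 1 library it did not pass, with a limma adjusted p of 0.0777 to 0.163.

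GAMT, guanidinoacetate methyltransferase, carries out the second step and uses S-adenosylmethionine as methyl donor (ENSSSCG00000023142; chromosome 2, 77076566 to 77079751). The GAMT log2 value was 7.55, 7.93, 8.07, 6.35 and 8.42 in CTEPH libraries s1, s3, s4, s5 and s9, against 8.64, 8.58, 8.39, 8.51 and 8.76 in Sham libraries s2, s6, s7, s8 and s10. The Sham libraries lay close together, CTEPH library s9 was just inside their range, and s5 was the lowest by a wide margin. GAMT had 44 counts in s5, against 125 counts in Sham library s7, the lowest of the Sham counts. Divided by relative depth, these were 41.2 and 167.1. The mean was 7.66 ± 0.80 in CTEPH libraries, against 8.58 ± 0.14 in Sham libraries (SD, n = 5 each), and the difference of -0.91 ± 0.32 (SE; 95% interval -1.60 to -0.23) did not pass (limma adjusted p = 0.124, Benjamini-Hochberg). Without s5 it was -0.59 and without s9 it was -1.10, neither of which passed (limma adjusted p = 0.139 and 0.0571).

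SLC6A8, the plasma membrane transporter that brings creatine into muscle, showed no detectable difference (ENSSSCG00000012771; chromosome X, 124435282 to 124452182). Log2 values were 11.73, 12.11, 11.73, 11.81 and 10.64 in CTEPH libraries s1, s3, s4, s5 and s9, against 12.66, 11.63, 12.34, 11.60 and 12.00 in Sham libraries s2, s6, s7, s8 and s10. The 4 CTEPH libraries other than s9 lay inside the Sham range. The difference was -0.44 ± 0.27 (SE; limma adjusted p = 0.397, Benjamini-Hochberg), with a 95% interval of -1.03 to 0.15, and -0.20 without s9.

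AK1, the main cytosolic adenylate kinase of muscle, also did not pass (ENSSSCG00000005627; chromosome 1, 268355032 to 268365659). Log2 values of AK1 were 12.53, 12.47, 12.57, 12.09 and 12.79 in CTEPH libraries s1, s3, s4, s5 and s9, against 12.80, 13.13, 12.84, 12.74 and 12.52 in Sham libraries s2, s6, s7, s8 and s10. The ranges overlapped, with CTEPH libraries s3 and s5 below every Sham library. The difference was -0.31 ± 0.15 (SE; 95% interval -0.64 to 0.02; limma adjusted p = 0.269, Benjamini-Hochberg).

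AMPD3 encodes an AMP deaminase that is best known from red blood cells and is also expressed in muscle (ENSSSCG00000022492; chromosome 2, 49026695 to 49084982). Its log2 value was 8.82, 9.66, 9.37, 9.26 and 9.25 in CTEPH libraries s1, s3, s4, s5 and s9, against 9.01, 8.73, 8.94, 8.85 and 9.22 in Sham libraries s2, s6, s7, s8 and s10. All CTEPH libraries but s1 lay above the Sham libraries, s5 and s9 by a narrow margin over s10. The difference of 0.32 ± 0.17 (SE; 95% interval -0.05 to 0.70) did not pass (limma adjusted p = 0.326, Benjamini-Hochberg). Only 2 of 9 erythroid genes were measured, with 0 called by limma and 0 at an unadjusted p under 0.05, at a mean centred level of -1.22 to 1.78 in CTEPH and -1.64 to 0.49 in Sham, and their part in the AMPD3 values was not tested.

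**Figure D3:**
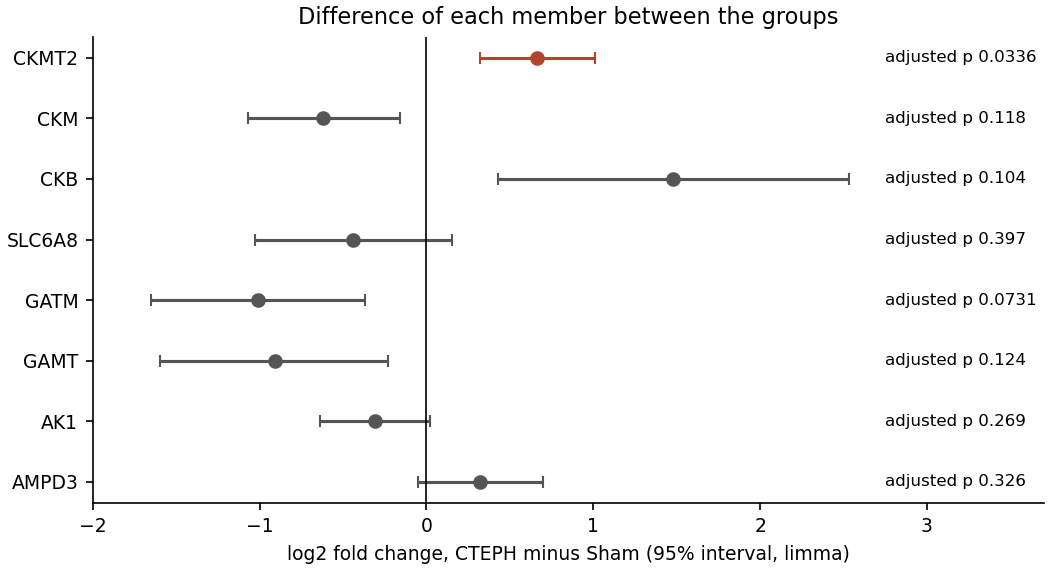
Log2 fold change, CTEPH minus Sham, of the 8 genes (x axis) with the 95% interval of the limma fit and the p adjusted over all genes (n = 5 libraries each). CKMT2, in red, passed at 0.05; the intervals of SLC6A8, AK1 and AMPD3 include 0.

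The CTEPH libraries did not move as a block. Library s5 lay inside the Sham range for 1 of the 8 genes and s3 and s4 for 2 each, while s1 and s9 lay inside it for 4 each. Those genes were CKB, SLC6A8, AK1 and AMPD3 in s1, and CKM, GATM, GAMT and AK1 in s9, with AK1 common to both. In CKMT2 all 5 CTEPH libraries lay outside the Sham range.

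**Figure D4:**
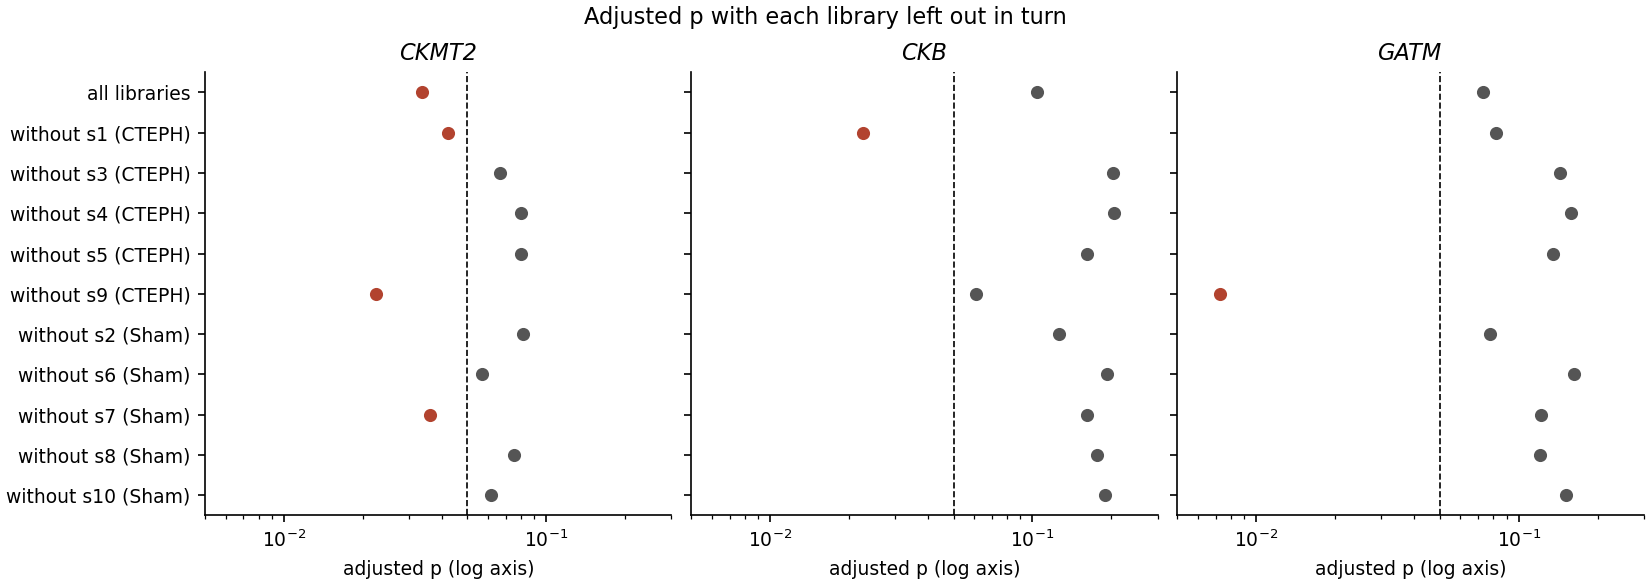
Adjusted p (x axis, log scale) of CKMT2, CKB and GATM with all libraries and with each library left out in turn; the dashed line is the threshold of 0.05 and red points are below it. CKMT2 moves across the line in 7 refits, CKB passes only without s1 and GATM only without s9.

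The genes most like CKMT2 across the 10 libraries were MYL2, the ventricular regulatory light chain (Pearson r = 0.966, Spearman rho = 0.976), TYMS, thymidylate synthase (r = 0.952, rho = 0.915), and TPM1, a sarcomeric tropomyosin (r = 0.950, rho = 0.960). The r values stayed between 0.935 and 0.977 without any 1 library. They are a description of genes picked as the highest among all genes with a symbol, and they contain the difference between the groups. After the group means were subtracted, the highest were TACR2, IRX4 and RHBDL3, with r of 0.910, 0.910 and 0.899 over the 10 libraries.

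Other genes of phosphate transfer and adenine nucleotide turnover were followed in lists. The counts called in these and the further related lists below are to be read against the 4.62% of all genes called. Of 15 measured further kinases, which included adenylate and nucleoside diphosphate kinases, 1 was called higher and 0 lower, with a median log2 fold change of -0.04, against -0.03 over all genes. That gene was NME1, a nucleoside diphosphate kinase that passes phosphate from ATP to other nucleotides, at 9.87 ± 0.20 in CTEPH libraries, against 9.13 ± 0.09 in Sham libraries (SD, n = 5 each). NME1 rose by 0.74 ± 0.14 (SE; limma adjusted p = 0.0103, Benjamini-Hochberg) and passed in each of the 10 refits without 1 library. Scaled to cardiomyocyte genes, NME1 was at 0.62 and did not pass (limma adjusted p = 0.0638). The scaling lowers the log2 fold change of every gene by this same step. It also changes the spread of each gene within the groups, as in AK1, whose SE went from 0.15 to 0.19. How much of the lost call came from either was not tested. The dividing-cell genes given above moved with the groups as well, and their part in the NME1 difference was not tested. The mitochondrial nucleoside diphosphate kinase gene NME4 was next by p, at -0.93 ± 0.44 (limma adjusted p = 0.258).

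Of 15 measured genes of AMP, IMP and adenosine turnover, 0 passed (limma), while 5 were at an unadjusted p under 0.05, as were 20.3% of all genes, with a median of 0.05. The nearest were PNP, a phosphorylase of purine nucleosides (0.94 ± 0.28, limma adjusted p = 0.0732; 1.04 with voom on the recovered counts, adjusted p = 0.0419), and ADSS1, the muscle adenylosuccinate synthase that returns IMP towards AMP (-0.65 ± 0.19, limma adjusted p = 0.0742). The value farthest from 0, named after it was seen, was that of XDH, xanthine dehydrogenase, at 1.78 ± 0.70 (limma adjusted p = 0.169). Of 9 measured carriers and channels that exchange ATP, ADP and phosphate with mitochondria, 0 passed (limma), while 1 was at an unadjusted p under 0.05, with a median of 0.12. That one was the ATP and ADP carrier gene SLC25A5, at 0.44 ± 0.20 (limma adjusted p = 0.229, Benjamini-Hochberg), followed by SLC25A23, a carrier of ATP-magnesium and phosphate, at 0.42 ± 0.32 (limma adjusted p = 0.507).

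One gene of the AMP-activated protein kinase, the sensor of a rising AMP share, was called lower in CTEPH. PRKAG3, its muscle-type gamma subunit, was at 11.15 ± 0.36 in CTEPH libraries, against 12.02 ± 0.26 in Sham libraries (SD, n = 5 each) and fell by 0.87 on the log2 scale (SE 0.19; limma adjusted p = 0.0188, Benjamini-Hochberg). It was the only one of 11 measured genes that was called, 0 were called higher, and the median was -0.01. At an unadjusted p under 0.05 there were 3 of the 11. Without CTEPH library s4 the limma adjusted p of PRKAG3 was 0.053. The gamma subunit genes PRKAG1 and PRKAG2, named after their values were seen, were at -0.28 ± 0.11 and 0.40 ± 0.34 (limma adjusted p = 0.177 and 0.552). In PRKAG1 the groups did not overlap. The upstream kinase gene STK11 was at -0.37 ± 0.12, with groups that did not overlap, and did not pass (limma adjusted p = 0.0953).

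Among 14 measured genes of arginine, glycine and methyl supply, 1 was called higher and 1 lower, with a median of 0.13. ARG2, the mitochondrial arginase that splits arginine, was at 8.29 ± 0.68 in CTEPH libraries, against 6.74 ± 0.40 in Sham libraries (SD, n = 5 each) and rose by 1.55 ± 0.32 (SE; limma adjusted p = 0.0162, Benjamini-Hochberg), a call that held in each refit without 1 library. SHMT1, which interconverts serine and glycine, was at 8.95 ± 0.58 in CTEPH libraries, against 9.89 ± 0.16 in Sham libraries (SD, n = 5 each) and fell by 0.94 on the log2 scale (SE 0.24; limma adjusted p = 0.0462, Benjamini-Hochberg). The SHMT1 call was lost in 8 of the 10 refits, all but those without CTEPH library s1 or s9, with a limma adjusted p of up to 0.107.

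Among 10 measured pumps, motors and channels that use or sense ATP, 1 was called higher and 0 lower, with a median of 0.04. ATP1B1, the beta subunit of the sodium pump, was at 14.14 ± 0.31 in CTEPH libraries, against 13.36 ± 0.18 in Sham libraries (SD, n = 5 each) and rose by 0.78 ± 0.16 (SE; limma adjusted p = 0.0151, Benjamini-Hochberg), a call that held in each refit without 1 library. Scaled to cardiomyocyte genes it was at 0.66 and did not pass (limma adjusted p = 0.0643). The fold change again moved by the step that the scaling gives every gene, and its spread could change as well. KCNJ8, a pore subunit of ATP-sensitive potassium channels, was at 0.43 ± 0.18 (limma adjusted p = 0.20). It is also on the smooth muscle and pericyte list. KCNJ11 and ABCC9, further subunits of these channels named after their values were seen, went the other way. They were at -0.75 ± 0.37 and -0.40 ± 0.19 (limma adjusted p = 0.28 and 0.256).

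Of 13 measured regulators of muscle energy genes, 0 were called higher and 1 lower, with a median of -0.22. The lower gene was EPAS1, whose limma adjusted p was 0.0544 without Sham library s7, and the coactivator gene PPARGC1B was at -0.63 ± 0.20 (limma adjusted p = 0.0994). Of 14 measured genes of the hypoxia response, 0 passed (limma), while 5 were at an unadjusted p under 0.05, with a median of 0.26. CA9, a carbonic anhydrase and textbook target of hypoxia-inducible factors, was at -0.62 ± 0.19 (limma adjusted p = 0.0777), on the other side of 0 from LDHA, the lactate dehydrogenase A gene, at 1.07 ± 0.31 (limma adjusted p = 0.0708).

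**Figure D5:**
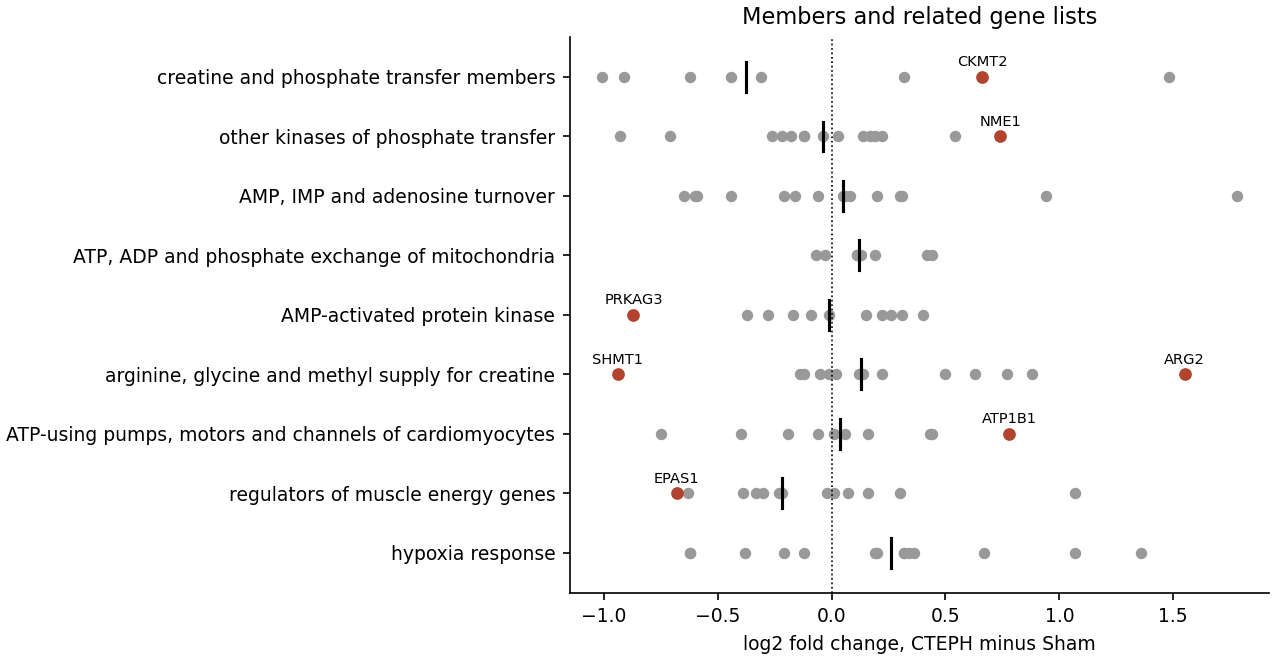
Log2 fold change, CTEPH minus Sham (x axis), of each measured gene of the 8 creatine and phosphate transfer genes and of the 8 related lists (n = 5 libraries each); red points passed at an adjusted p of 0.05 and are named, and the black tick is the median of a list. Between 0 and 2 genes of each list passed, against 4.62% of all genes.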

How the data were processed

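Right ventricular RNA of 10 pigs was sequenced. The authors deposited log2 values with nearly the same distribution in every library (medians 9.305 to 9.308), as quantile normalization leaves. Per the submitters' processing notes, limma 3.50.0, edgeR 3.36.0, featureCounts, FastQC 0.11.5, cutadapt 1.15 and bcl2fastq 2.18.12 were used with build Sscrofa11.1; the aligner, annotation, strand setting and low-gene filter were not given in the sources used here. Such values cannot show a shift common to most genes. Low values follow log2(2k + 1) of whole counts k, averaged over libraries by rank: 52.8% of values gave k back within 1e-06, and 6763 genes did in all 10 libraries. Total counts could not be computed, and whether 1 count is a read or a read pair is not given.

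Ensembl identifiers were paired with symbols by a name table (12378 genes matched), and coordinates were taken from RefSeq by symbol. CTEPH was tested against Sham with limma 3.58.1 under R 4.3.3 (intensity trend, no covariate, two-sided). The labels call each library a pig but give no pairing or batch. The 9 genes and all lists were chosen with earlier results of these data known. The text names all members and, per related list, the called genes, filled to 2 by smallest p; called genes of the marker lists are named, other than those of dividing cells, and the few further genes were picked with their values known, which the text says beside each. A list's level is the mean of its genes' log2 values after each gene's mean is subtracted. The fit was tested on simulated data. Alternatives were a constant prior, robust fitting, library weights, a low-value filter, scaling to cardiomyocyte genes, a 1.5-fold null, voom on the recovered counts (with median-ratio library sizes, chosen after the data were seen), permutation and leaving out each library.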

Additional observations from a re-analysis of the deposited data

Results flagged for a closer look

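SLC6A8 in CTEPH library s9 stood apart from the other CTEPH libraries, at a log2 value of 10.64 against 11.73 to 12.11. The gap to the nearest library was 0.737 of the whole range of the group, above the critical value of 0.71 for 5 samples by Dixon's test. Of 18 groups of values examined (8 genes and CKB minus CKM, in CTEPH and in Sham) this was the only one, and chance flags about 1 in 20 groups.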

How the results depend on the processing

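Of the 8 genes, 1 was called, and 0 were called with a constant prior variance, with scaling to cardiomyocyte genes or against a 1.5-fold change; library weights called 3, 2 higher (CKMT2 and CKB) and 1 lower (GATM), where 8.11% of all genes passed. Without 1 library, between 0 and 2 of the 8 were called, 0 to 2 higher and 0 to 1 lower. No fold change of the 8 genes changed sign under any alternative. Over all genes 723 were called, 443 higher and 280 lower. Library weights gave 1269 (722 higher, 547 lower), the 1.5-fold null 127 (121 and 6), and leaving out the lowest 25% of genes 273 higher. Without 1 library the counts ran from 401 to 961, 270 to 570 higher and 117 to 392 lower. Scaling to cardiomyocyte genes gave 654, 47.4% of them higher against 61.3%, and moved the median of all genes to -0.15 from -0.03. It moves every gene of a library equally, so relative to that median CKMT2 was by construction at 0.69 in both. CKB minus CKM was 2.61 by medians (two-sided exact permutation p = 0.0476). By an unadjusted two-sided exact permutation test CKMT2 had p = 0.00794 (the smallest this design allows), GAMT 0.0159, CKM 0.0238, GATM 0.0317 and CKB 0.0476. No paired analysis was possible because the labels give no pairing. The cause of these shifts in counts was not tested. Voom, not run with TMM as first planned, used the 6763 genes with recovered counts in all libraries, of the 8 only GATM and GAMT; PNP passed there (1.04, limma adjusted p = 0.0419) and SOX10 did not (0.056). Whether differences of the size of AK1 or AMPD3 exist could not be settled with 5 pigs a group.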
